A study of Homo sapiens with 4 samples.

Results

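The anaphase-promoting complex (APC/C) and its partners were described in 4 RNA-seq libraries, 2 of PANC-1, a pancreatic ductal adenocarcinoma cell line, and 2 of PZT-2, a clone of PANC-1 in which the histone variant H2A.Z was knocked down. The members were 10 genes taken by symbol, a choice made with earlier results of these data known: the coactivators CDC20 and FZR1, the inhibitor FBXO5, the ubiquitin-conjugating enzymes UBE2C and UBE2S, and the subunits ANAPC1, ANAPC2, ANAPC5, ANAPC11 and CDC27. They stood among 15220 genes in the deposited table, and all 10 passed the filter on low counts. PZT-2 cells carry lentiviral shRNAs, driven by a U6 promoter, against the H2A.Z isoforms and were selected with puromycin and cloned, whereas the PANC-1 cells were not transduced. Both lines were grown in the same medium and taken at the same passages. The knockdown, the transduction with its selection and the origin of PZT-2 from 1 clone cannot be told apart here, and cells with a control shRNA are not analysed here. In bulk RNA, fewer cells in one phase of the cell cycle and less RNA of a gene per cell cannot be told apart either. By BrdU and propidium iodide staining after serum starvation, the paper reports a G2/M arrest for most H2A.Z-depleted cells. The part of this arrest in the RNA values was not tested.

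The APC/C is a ubiquitin ligase that drives the exit from mitosis. With CDC20 it marks securin and the B cyclins for destruction at the start of anaphase, and with FZR1 (CDH1) it keeps mitotic regulators low through G1. UBE2C places the first ubiquitins on a substrate and UBE2S lengthens the chain, while FBXO5 (EMI1) holds the complex back in S and G2 phase. The mRNAs of CDC20 and UBE2C are known to accumulate in G2 and mitosis in dividing cells.

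Reads in the 4 libraries, once a scaling factor in the deposited values had been undone, came to between 12861486 and 15717578 estimated counts. The knockdown was seen in the mRNA of both H2A.Z genes. H2AFZ had 6389 and 6034 normalized counts in PANC-1 and 2212 and 2259 in PZT-2 (log2 fold change -1.47 ± 0.06, SE, adjusted p = 6.28e-05). H2AFV fell less, from 3343 and 3452 to 2590 and 2719 (-0.36 ± 0.06, adjusted p = 0.00574), and was not past the threshold without PZT-2 replicate 1 (adjusted p = 0.0601). Adjusted p values are those of edgeR's quasi-likelihood test over all genes, fold changes are PZT-2 against PANC-1, and the threshold was 0.05. Of the epithelial markers, the keratins KRT8, KRT18 and KRT19 were abundant and all 3 were lower in PZT-2, while KRT7 (103.7 to 143 normalized counts) and EPCAM (82.1 to 105) were low in both lines. The 5 markers summed to 85553 and 86601 normalized counts in PANC-1 and to 44354 and 45161 in PZT-2. Of 15 markers of leukocytes, endothelium, fibroblasts, acinar and endocrine cells, 12 were not listed, PECAM1 had 4.03 to 12.4 normalized counts, CD68 had 1578 to 1708, and COL1A1 was lower in PZT-2 (170 and 135) than in PANC-1 (494 and 531). The 3 that were tested summed to 2114 and 2189 normalized counts in PANC-1 and to 1767 and 1882 in PZT-2, with CD68 taking most of the sum. The part of the keratins, of COL1A1 and of these sums in the results that follow was not tested.

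Among the 10 genes, 5 were lower in PZT-2 at the threshold (CDC20, UBE2S, UBE2C, ANAPC2 and CDC27) and 0 were higher. No gene of the 10 was higher at an unadjusted p under 0.05 with edgeR, against 3083 of all 15100 genes. None of the 10 was called higher with DESeq2 or limma. Over all 15100 genes tested, 13.7% were called lower and 14.7% higher, 28.4% in all. The median log2 fold change of the 10 genes was -0.24, against 0.00 over all genes. In 8 of the 10 genes the higher PZT-2 library was still under the lower one of PANC-1, an order found in 32.9% of all genes. The changes were small: the called genes kept between 73.8% and 82.9% of their PANC-1 level, and none of the 10 changed by 2-fold. The study calls the 2 libraries of a line biological replicates, and the labels do not state whether they came from separate cultures, so the p values measure the spread between these libraries.

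**Figure D1:**
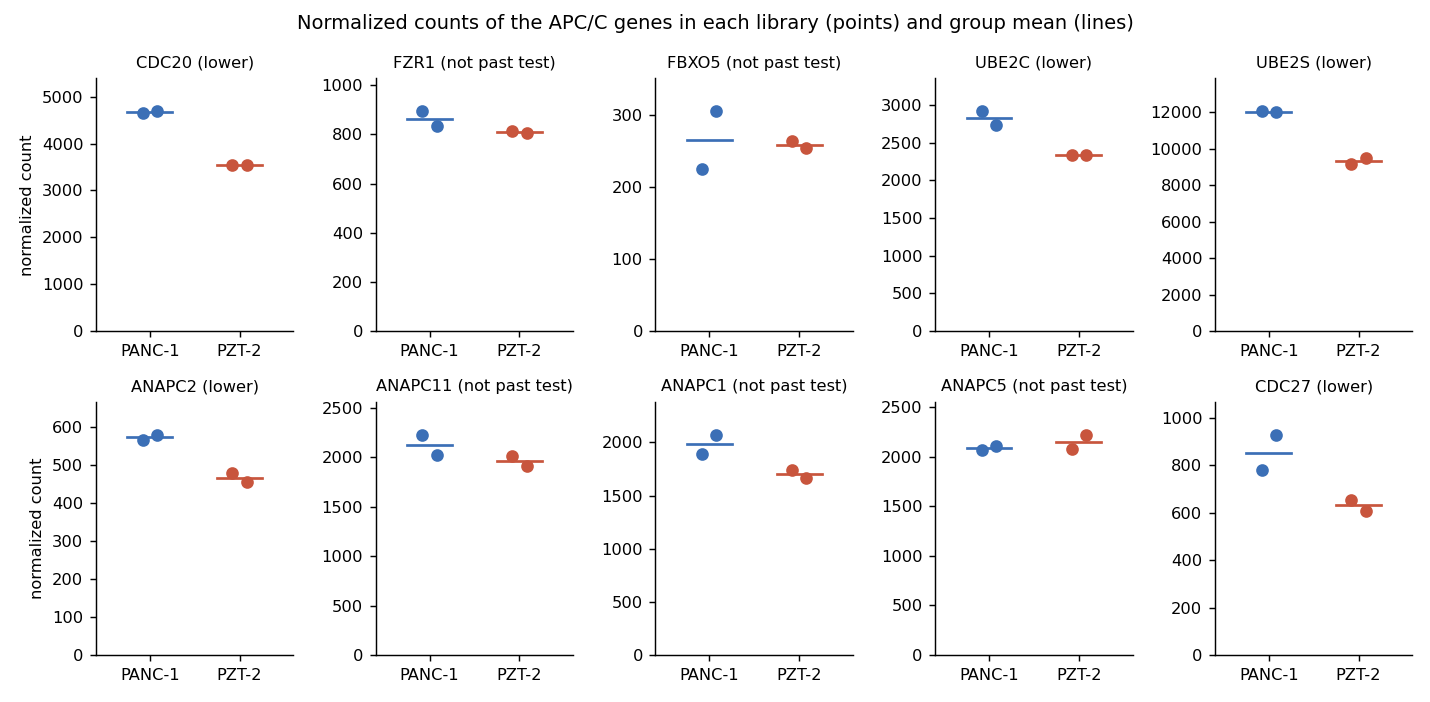
Normalized counts (vertical axis, starting at 0) of each of the 10 genes in the 2 libraries of PANC-1 (blue) and PZT-2 (red), with a line at the group mean. In CDC20, UBE2S, UBE2C, ANAPC2 and CDC27, marked as lower, the PZT-2 libraries sit below those of PANC-1, whereas in FBXO5 and ANAPC5 the groups overlap.

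CDC20, the coactivator of mitosis, fell. It had 4653 and 4686 normalized counts in PANC-1 and 3549 and 3542 in PZT-2. The replicates differed little and the groups were well apart, at 4669 ± 23.2 (SD, n = 2) and 3546 ± 4.76. Its log2 fold change was -0.40 ± 0.05 (SE), with a 95% interval from -0.52 to -0.28 and an adjusted p of 0.00247. This call held under all 14 alternatives that gave CDC20 a value, with log2 fold changes from -0.41 to -0.34 and adjusted p values from 5.52e-09 to 0.0362.

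FZR1, the coactivator of G1, had 893 and 832 normalized counts in PANC-1 and 815 and 804 in PZT-2. The PZT-2 values were the lower ones, but the gap between the groups was smaller than the difference between the PANC-1 libraries. Its log2 fold change of FZR1 was -0.09 ± 0.07 (SE), with an interval from -0.26 to 0.08 and an adjusted p of 0.393. The intervals of the 2 coactivators did not overlap, and the difference between them was not tested. On the TPM scale, which divides counts by transcript length and then by their total, CDC20 stood 11.7 and 12.6 times above FZR1 in the PANC-1 libraries and 9.77 and 9.89 times above it in the PZT-2 libraries. This ratio is taken within a library, so the scaling between libraries does not enter it, and its values did not overlap between the lines. How often such a ratio did not overlap over all pairs of genes was not counted.

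FBXO5, the inhibitor, had 225 and 305 normalized counts in PANC-1 and 264 and 253 in PZT-2. Both PZT-2 values lay between the 2 PANC-1 values, so the groups overlapped. Its log2 fold change was -0.04 ± 0.16 (SE), with an adjusted p of 0.872 and the widest interval of the 10 genes from -0.42 to 0.33, so that a fall as large as that of CDC20 lay within it. Its direction changed with the library left out, to 0.19 without PANC-1 replicate 2.

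Both ubiquitin-conjugating enzymes fell. UBE2S, which lengthens the ubiquitin chain, had 12043 and 12015 normalized counts in PANC-1 and 9168 and 9501 in PZT-2. Its groups were far apart relative to their spread, 12029 ± 19.8 (SD, n = 2) against 9335 ± 235. The log2 fold change was -0.37 ± 0.05 (SE), with an interval from -0.47 to -0.26 and an adjusted p of 0.00237, and it was past the threshold under all 14 alternatives, with adjusted p values from 3.18e-11 to 0.0335.

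UBE2C, which starts the chain, had 2912 and 2728 normalized counts in PANC-1 and 2338 and 2334 in PZT-2. The groups did not overlap, although the PANC-1 libraries differed more from each other than the PZT-2 libraries did. The log2 fold change was -0.27 ± 0.06 (SE), with an interval from -0.41 to -0.13 and an adjusted p of 0.0171. With 1 PZT-2 library left, the size held and the call did not: it was -0.27 without PZT-2 replicate 1 (adjusted p = 0.108) and -0.27 without PZT-2 replicate 2 (adjusted p = 0.120). The copy UBE2CP5, which could share reads with UBE2C, was listed with between 41 and 70 counts. Other annotated copies, such as CDC27P1, UBE2SP1 and CDC20P1, were not listed. Whether reads from these copies counted towards CDC27, UBE2S or CDC20 was not tested.

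The catalytic pair of the complex is made of ANAPC2 and ANAPC11, and both had negative estimates with intervals that overlapped. ANAPC2, the cullin subunit, had 566 and 578 normalized counts in PANC-1 and 478 and 454 in PZT-2, so the groups did not overlap. Its log2 fold change was -0.30 ± 0.08 (SE), with an interval from -0.48 to -0.11 and an adjusted p of 0.0327. This call was close to the threshold and passed under 6 of 14 alternatives. It did not pass without PANC-1 replicate 2 (adjusted p = 0.0676), without PZT-2 replicate 1 (0.0971) or without PZT-2 replicate 2 (0.171).

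ANAPC11, the RING subunit that binds the conjugating enzyme, had 2227 and 2029 normalized counts in PANC-1 and 2018 and 1915 in PZT-2. The higher PZT-2 library lay just under the lower PANC-1 library. Its log2 fold change was -0.11 ± 0.07 (SE), with an interval from -0.28 to 0.05 and an adjusted p of 0.280, and it was past the threshold only without PANC-1 replicate 2 (-0.19, adjusted p = 0.0461). The difference between ANAPC2 and ANAPC11 was not tested.

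CDC27 had the largest fold change of the 10 genes and also one of the least precise. This subunit of the tetratricopeptide arm, to which coactivators dock, had 781 and 928 normalized counts in PANC-1 and 655 and 609 in PZT-2. The groups were apart, at 855 ± 104.1 (SD, n = 2) and 632 ± 32.6. The log2 fold change was -0.44 ± 0.10 (SE), with an interval from -0.68 to -0.19 and an adjusted p of 0.0211. The call was lost with either PZT-2 library left out, at an adjusted p of 0.0601 without replicate 1 and 0.124 without replicate 2.

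The scaffold subunits were not past the threshold. ANAPC1, the largest subunit, had 1896 and 2069 normalized counts in PANC-1 and 1743 and 1667 in PZT-2, which did not overlap. Its log2 fold change was -0.22 ± 0.07 (SE), with an interval from -0.38 to -0.05 and an adjusted p of 0.0559, just above the threshold. It passed without PANC-1 replicate 1 (-0.28, adjusted p = 0.00584) and with a filter of at least 10 counts in all 4 libraries (-0.22, adjusted p = 0.0397).

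ANAPC1 has a near-identical copy in the table, ANAPC1P2, whose values went the other way. ANAPC1P2 had 199 and 199 normalized counts in PANC-1 and 303 and 305 in PZT-2, which is a log2 fold change of 0.61 ± 0.10 (SE) with an adjusted p of 0.00614. Reads that match both can be split between them by the abundance estimate, so the value of ANAPC1 is uncertain by an amount that was not tested. ANAPC1P2 was named after its values were seen.

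ANAPC5, a platform subunit, was the 1 gene of the 10 with a positive estimate. It had 2066 and 2108 normalized counts in PANC-1 and 2083 and 2220 in PZT-2, and the groups overlapped. The log2 fold change was 0.04 ± 0.06 (SE), with an interval from -0.10 to 0.19 and an adjusted p of 0.644. It was -0.0030 with PZT-2 replicate 2 left out.

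The other 9 subunits of the complex held 0 calls with edgeR's quasi-likelihood test, 0 with DESeq2 and 0 with limma. At an unadjusted p under 0.05 with edgeR, 1 of them was lower, against 3044 of all 15100 genes. The log2 fold changes of the 9 ran from -0.19 to 0.08 with a median of -0.10, and 6 of the 9 were negative. ANAPC7, a tetratricopeptide subunit, came nearest to the threshold, with 1727 and 1830 normalized counts in PANC-1 and 1546 and 1563 in PZT-2 (-0.19, adjusted p = 0.0568). It passed without PANC-1 replicate 1 (adjusted p = 0.0133) and with the filter of 10 counts in each of the 4 libraries (0.0422). The remaining log2 fold changes were -0.16 for ANAPC10, -0.15 for ANAPC15, -0.13 for ANAPC16, -0.10 for CDC16, -0.05 for ANAPC4, 0.05 for CDC23, 0.07 for CDC26 and 0.08 for ANAPC13. CDC16 and CDC23 stand in the same arm of the complex as CDC27. The interval of CDC16 (-0.26 to 0.06) overlapped that of CDC27 (-0.68 to -0.19), and that of CDC23 (-0.13 to 0.24) did not. Whether CDC16 or CDC23 differs from CDC27 was not tested.

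**Figure D2:**
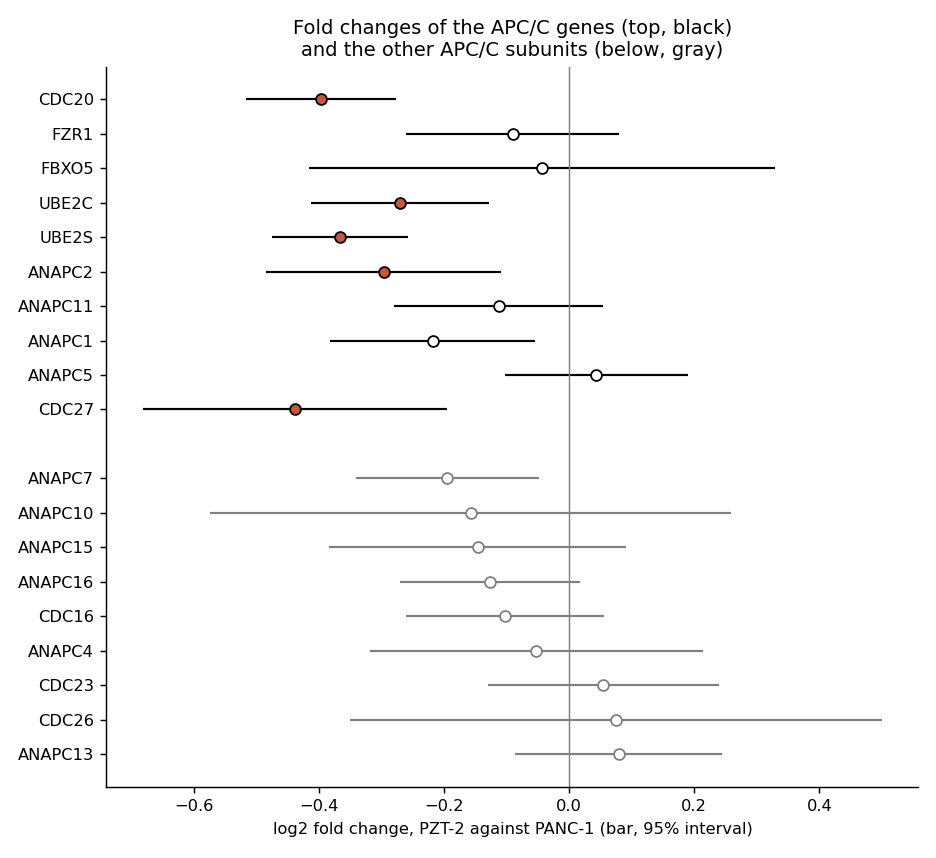
Log2 fold change of PZT-2 against PANC-1 (horizontal axis) for the 10 genes (black) and the other 9 APC/C subunits (gray), with bars for the 95% interval and filled points for genes past the threshold. CDC20, UBE2C, UBE2S, ANAPC2 and CDC27 are filled and lie between -0.44 and -0.27, and the other subunits lie between -0.19 and 0.08.

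Levels can be set side by side between genes on the TPM scale. UBE2S was the highest, at 1406 and 1451 TPM in PANC-1 and 1136 and 1172 TPM in PZT-2, followed by UBE2C at 512 and 497 TPM and then 433 and 433 TPM. UBE2C stood at 0.364 and 0.342 of the UBE2S level in PANC-1 and at 0.381 and 0.369 in PZT-2, so both PZT-2 ratios were slightly above both of PANC-1. ANAPC5 followed further down at 103.6 to 117 TPM over the 4 libraries.

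CDC20 and ANAPC11 exchanged places in this order. CDC20 had 371 and 386 TPM in PANC-1, above the 355 and 337 TPM of ANAPC11. In PZT-2, CDC20 had 300 and 298 TPM, below the 346 and 325 TPM of ANAPC11. The values of the pair did not overlap within either line. The TPM of ANAPC11 is a sum over 12 transcripts, so it depends on how reads were shared among them.

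The bottom of the order held the core subunits and the regulators FZR1 and FBXO5. ANAPC1 (28.4 to 34.5 TPM) and FZR1 (30.1 to 31.8 TPM) did not differ beyond their spread in PANC-1, whereas in PZT-2 FZR1, at 30.7 and 30.1 TPM, lay above ANAPC1, at 29.8 and 28.4 TPM. ANAPC2 came next at 22.8 to 28.4 TPM. FBXO5 (13.5 to 19.1 TPM) and CDC27 (13.8 to 20.5 TPM) overlapped in PANC-1, whereas in PZT-2 FBXO5, at 17.3 and 16.4 TPM, lay above CDC27, at 14.9 and 13.8 TPM. The RING subunit ANAPC11 stood 13.2 and 11.8 times above its cullin partner ANAPC2 in PANC-1 and 14.3 and 14.3 times above it in PZT-2.

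**Figure D3:**
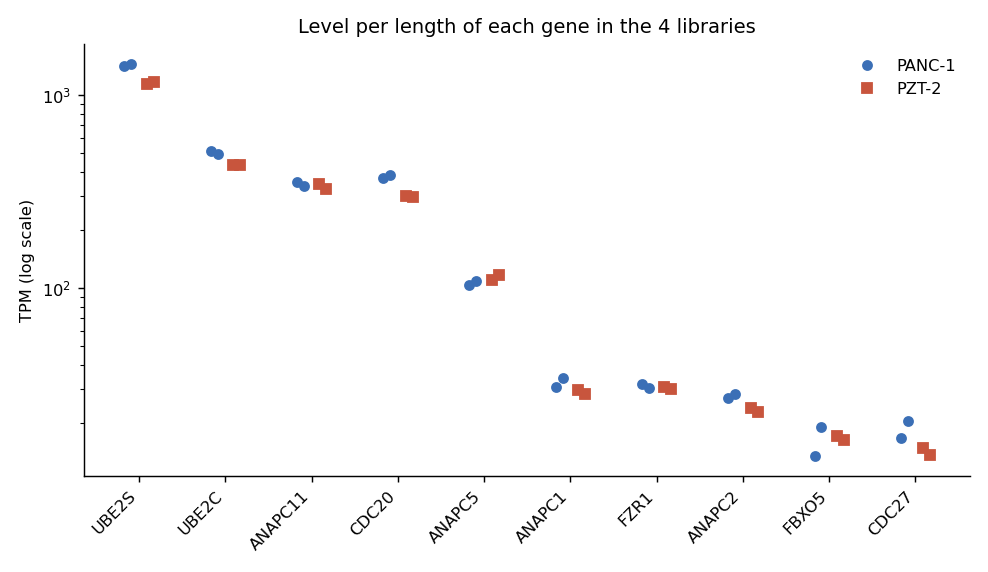
Level per length of the 10 genes in TPM (vertical log axis), ordered by their mean over the 4 libraries, with PANC-1 as blue circles and PZT-2 as red squares. UBE2S is at the top with 1136 to 1451 TPM, and FBXO5 and CDC27 are at the bottom with under 21 TPM in every library, each below the lowest value of ANAPC2.

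The 10 genes were estimated from 36 RefSeq transcripts, of which 0 were past the threshold over all transcripts with edgeR's quasi-likelihood test and 9 had an unadjusted p under 0.05. The transcript test called few, 45 of 30403 or 0.148%, with 5614 at an unadjusted p under 0.05. The nearest was the single transcript of CDC20, with an adjusted p of 0.0680. CDC20, UBE2S, ANAPC1 and ANAPC2 had 1 transcript each, so their gene values do not depend on how reads were shared among isoforms.

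In FBXO5, UBE2C, ANAPC5 and, at low counts, CDC27 the groups did not overlap for a lower and for a higher transcript of the same gene, and none of these transcripts passed over all transcripts. How often this holds among all genes with several transcripts was not counted, so whether it is unusual is not known. The share of whole genes that were lower without overlap, 32.9%, is a different measure and is not its background. In FBXO5, NM_001142522 had 132 and 117 normalized counts in PANC-1 and 45.2 and 62.1 in PZT-2. NM_012177 had 93.3 and 189 in PANC-1 and 218 and 190 in PZT-2. The share of NM_012177 in the counts of FBXO5 was 41.5% and 61.7% in PANC-1 and 82.8% and 75.4% in PZT-2, without overlap. The adjusted p values of the pair were 0.171 and 0.652, and the sum of the pair, given above, did not move beyond its spread.

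In UBE2C, 1 of 7 transcripts, NM_007019, held 84.5% to 89.3% of the counts in every library, and it had 2501 and 2448 normalized counts in PANC-1 and 1988 and 1967 in PZT-2. NM_181801 of UBE2C had 184 and 125 in PANC-1 and 225 and 225 in PZT-2 (adjusted p = 0.403), with 6.3% and 4.6% of the gene's counts and then 9.6% and 9.7%. In ANAPC5, NM_001137559 had 87.7 and 54.5 normalized counts in PANC-1 and 23.1 and 24.6 in PZT-2 (adjusted p = 0.205), and the main transcript NM_016237 had 1785 and 1835 and then 1839 and 1929 (adjusted p = 0.7005). The counts of ANAPC11 were spread over 12 transcripts, with 19.4% to 26.3% on NM_001002246 and 17.3% to 28.4% on NM_001002248. The split of CDC27 was unstable between libraries of 1 line: NM_001256 held 56.5% of its counts in PZT-2 replicate 1 and 6.5% in PZT-2 replicate 2. The sum over its transcripts was steadier (655 and 609 normalized counts), and no change of a single CDC27 transcript can be read at this depth.

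**Figure D4:**
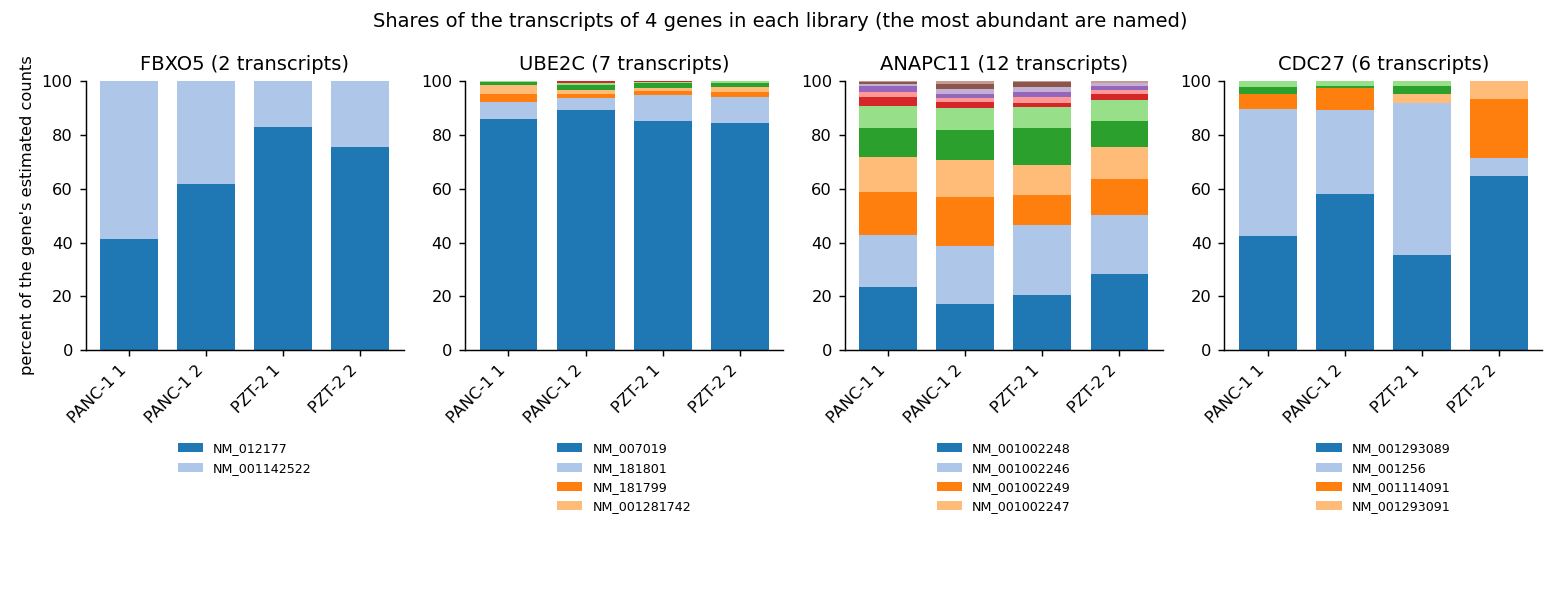
Share of each RefSeq transcript in a gene's estimated counts (vertical axis, percent) in each library, for FBXO5, UBE2C, ANAPC11 and CDC27, with the most abundant transcripts named under each panel. NM_012177 of FBXO5 takes 75.4% and 82.8% in PZT-2 against 41.5% and 61.7% in PANC-1, and the CDC27 bars of the 2 PZT-2 libraries differ from each other.

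Promoter sequences from RefSeq (GRCh38.p14), 250 bases before to 50 after a transcription start, were found for 9 of the 10 genes, with 14 windows in all. UBE2C had none. They were searched on both strands for CCAAT, the box bound by NF-Y, and TTTGAA, a form of the cell cycle homology region found in promoters of G2/M genes. In the windows of these genes no match to one overlapped a match to the other. Stretches before the start of CDC20, UBE2S and CDC27, the called genes with a match, are given 5′ to 3′ on the strand of the gene. Matches are in capitals (ATTGG is CCAAT on the opposite strand). Whether these motifs bear on the fall of the genes was not tested.
CDC20, chr1:43358871-43358940, plus strand: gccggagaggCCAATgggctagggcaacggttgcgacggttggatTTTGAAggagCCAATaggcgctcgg
UBE2S, chr19:55407929-55407988, minus strand: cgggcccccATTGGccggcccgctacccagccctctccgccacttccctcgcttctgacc
CDC27, chr17:47189476-47189535, minus strand: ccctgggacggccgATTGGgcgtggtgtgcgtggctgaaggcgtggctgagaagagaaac

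The CDC20 promoter held CCAAT at 100 and 55 bases before the start, on either side of TTTGAA at 65 bases, and a further TTTGAA on the opposite strand at 178 bases. UBE2S held CCAAT on the opposite strand at 191 bases and CDC27 at 226 bases before the start, with TTTGAA in neither window. ANAPC2 held neither. Genes that were not called held matches too. CCAAT stood on the opposite strand in ANAPC5 at 76 bases and in 3 windows of ANAPC11 at 68, 54 and 44 bases before the start, and TTTGAA in FZR1 at 226 bases before and in ANAPC1 at 37 bases after it. A window of FBXO5 held 4 matches to CCAAT, of which 2 on opposite strands overlapped each other, and 1 to TTTGAA, at 40 bases before that start. CDC20 and FBXO5 were the 2 genes with both motifs in 1 window. In all, 6 of the 9 genes held CCAAT and 4 held TTTGAA. Of all 35116 promoter windows, 34.6% held CCAAT, 15.2% TTTGAA and 5.90% both, so a match alone is common. These shares are per window, whereas the 9 genes were counted by a match in any of their 14 windows.

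Genes around the complex were called in both directions, as 13.7% of all genes were called lower and 14.7% higher. Of 8 genes of the spindle checkpoint, which holds CDC20 back until chromosomes are attached, 1 was called higher and 1 lower, and the list's median was -0.04. With DESeq2 or limma, 0 were called. MAD2L1, which binds CDC20 directly, had 384 and 473 normalized counts in PANC-1 and 538 and 642 in PZT-2, which is a log2 fold change of 0.46 ± 0.13 (SE) with an adjusted p of 0.0440. TTK, the kinase at the head of the checkpoint, had 288 and 288 in PANC-1 and 215 and 226 in PZT-2 (-0.38 ± 0.10, adjusted p = 0.0318). Both calls were near the threshold. With replicate 1 of PANC-1 left out the adjusted p of MAD2L1 was 0.0713, and with replicate 1 or 2 of PZT-2 left out it was 0.0508 or 0.217. With replicate 2 of PANC-1 left out the adjusted p of TTK was 0.0535, and with replicate 1 or 2 of PZT-2 left out it was 0.163 or 0.119. Of 10 other regulators of the APC/C tested, 0 were called with edgeR's quasi-likelihood test, DESeq2 or limma. At an unadjusted p under 0.05 with edgeR, 3 of them were lower, against 3044 of all 15100 genes. The log2 fold changes of the 10 ran from -0.43 to 0.17, and USP44 was not listed.

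Of 34 substrates of the APC/C, 10 were called lower, 3 higher and 21 neither, with a median log2 fold change of -0.12. Together 38.2% were called, against 28.4% of all genes. With replicate 1 of PZT-2 left out 6 were lower and 2 higher, and with replicate 2 left out 4 and 1. ANLN, an actin-binding protein of the cleavage furrow, fell most, from 2954 and 3535 normalized counts to 2127 and 1962 (-0.67, adjusted p = 0.00397). CKAP2, a microtubule-associated protein, fell from 572 and 643 to 418 and 355 (-0.66, adjusted p = 0.00693) and CENPF, a kinetochore protein, from 1816 and 2058 to 1413 and 1193 (-0.57, adjusted p = 0.00820). CCNB1, the mitotic cyclin that APC/C with CDC20 destroys, fell from 4785 and 4886 to 3368 and 3530 (-0.49, adjusted p = 0.00162).

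The substrates called higher were fewer. CDC25A, a phosphatase that activates cyclin-dependent kinases, rose from 323 and 428 normalized counts to 655 and 682 (0.82, adjusted p = 0.00590). CDC6, which loads the replicative helicase in G1, rose from 911 and 1063 to 1358 and 1567 (0.56, adjusted p = 0.00897). NUSAP1, a spindle protein, rose from 1063 and 1149 to 1320 and 1293 (0.24, adjusted p = 0.0398). CENPF and CDC6 were just over the threshold without PZT-2 replicate 2 (adjusted p = 0.0561 and 0.0632), and NUSAP1 lost its call with replicate 1 of PANC-1 (0.0839) or with either replicate of PZT-2 (0.184 and 0.159) left out.

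In the SCF ubiquitin ligase, the other cullin-based ligase of the cell cycle, 3 of 13 genes were called lower and 2 higher, with a median of -0.02. Together these were 38.5% of the list, against 28.4% of all genes. With DESeq2 1 was lower and 2 higher, with either limma fit 1 and 3, and with the replicate block 0 and 2. The RING subunit RBX1, the counterpart of ANAPC11, had 761 and 774 normalized counts in PANC-1 and 625 and 656 in PZT-2 (-0.26, adjusted p = 0.0356), and CCNF (-0.22, adjusted p = 0.0458) and CKS1B (-0.21, adjusted p = 0.0329) were also lower. FBXO11 (0.42, adjusted p = 0.0108) and the conjugating enzyme UBE2R2 (0.32, adjusted p = 0.00783) were higher. Of the genes that supply ubiquitin, UBA1 (-0.23, adjusted p = 0.0128) and UBB (-0.23, adjusted p = 0.0124) were lower and RPS27A (0.26, adjusted p = 0.00789) higher. With either PZT-2 library left out, RBX1, CCNF, CKS1B, UBA1 and UBB had adjusted p values from 0.0803 to 0.213 and RPS27A had 0.0864 and 0.0506. FBXO11 was not past the threshold without PZT-2 replicate 2 (0.0810), nor UBE2R2 without PZT-2 replicate 1 (0.0777), nor were RBX1 (0.0700) and CCNF (0.0754) without PANC-1 replicate 2 or CCNF without PANC-1 replicate 1 (0.0541).

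The genes whose profile over the 4 libraries was nearest to that of CDC20, by the root mean square difference of centred log2 CPM, were ZNHIT2 (0.00402), SLC10A3 (0.00775) and FGD1 (0.01003). Their log2 fold changes were all -0.40, like that of CDC20. Because these genes were picked by profile, the likeness of the fold changes was fixed by the choice. The 10 genes lie on 8 chromosomes, whose median log2 fold changes over all tested genes ran from -0.05 for chromosome 19, which carries UBE2S and FZR1, to 0.12 for chromosome 2, which carries ANAPC1. The chromosomes of CDC20 (1), CDC27 (17), ANAPC2 (9) and UBE2C (20) had medians of -0.01, 0.01, 0.01 and 0.01.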

How the data were processed

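Stranded mRNA libraries were sequenced on a NextSeq 500 as read pairs of 76 bases. Reads were trimmed by the authors (Trim Galore 0.4.1) and quantified on RefSeq transcripts (kallisto 0.43.0), and sleuth 0.29.0 served for their comparison of the lines. The submitters' processing notes name hg19. The deposited estimated counts carry 1 factor per library (1.16, 0.935, 1.03 and 1.01 for PANC-1 replicates 1 and 2 and PZT-2 replicates 1 and 2), read from the commonest value near 1 among transcripts alone of their gene and undone here. After this, 44.7% to 46.9% of their values from 0.5 to 30 were whole within 0.01, against 0.815% to 2.41% as deposited. The deposited table of comparisons holds sleuth's effects, p-values and q-values, and it was used for gene symbols only.

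Recovered counts were rounded and summed over the transcripts of each gene. Symbols came from that table for 27049 of 31077 transcripts and through the accession, looked up in RefSeq for GRCh38.p14, for 3925, while 103 with 0.0466% of counts had no name. A gene was tested if 2 or more libraries held 5 or more counts, with edgeR 4.0.16 (TMM, quasi-likelihood) in R 4.3.3, with Benjamini-Hochberg adjustment over all genes. Normalized counts are scaled to the mean effective library size, TPM was recomputed from recovered counts and effective lengths, and the fits were tested on simulated data. An exact permutation test of 2 against 2 libraries cannot go below p = 0.333, so none was made. Alternatives were RLE size factors, DESeq2 1.42.0, other filters, limma 3.58.1 on log2(TPM + 1) and log2(TPM + 0.1), leaving out each library, blocking on the replicate number, a 2-fold minimum, the deposited values, the most abundant transcript and length-scaled counts.

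The members and lists were chosen with earlier results of these data known. Named are all members, the H2A.Z genes, the other APC/C subunits, up to 4 genes in each direction with the largest changes among the called genes of each list, and the 3 genes nearest to CDC20 whose normalized counts averaged 100 or more. A gene of the ubiquitin supply list is not reported here.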

Additional observations from a re-analysis of the deposited data

How the results depend on the processing

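CDC20 and UBE2S were called lower under all alternatives except the 2-fold minimum, which left 0 of the 10 genes and 837 genes in all. The count of 5 members called lower was 3 with limma on log2(TPM + 1) or log2(TPM + 0.1), and 3 with the most abundant transcript of each gene, where 2124 genes were called against 4290. A filter of at least 10 counts in all 4 libraries gave 6 members, with ANAPC1 added. With a library left out, it ran from 2 to 6 members and from 1867 to 4669 genes, and the lowest counts came without a PZT-2 library, where the lone library is assumed to vary like the others. No member was called higher in any of these. The replicate block, with numbers that are not known to pair the libraries (correlation of same-numbered deviations -0.0237), gave 3698 genes and 4 members, without ANAPC2 (adjusted p = 0.0591), and DESeq2 gave 3221 genes and the same 4 members. CDC27 was not called with limma (adjusted p = 0.0932 and 0.0934) or with its most abundant transcript (0.419). The log2 fold change of FBXO5 turned to 0.063 and 0.067 with the 2 limma fits and to 0.53 with its most abundant transcript, and ran from -0.24 to 0.19 with a library left out (0.19 without PANC-1 replicate 2). That of ANAPC11 turned to 0.13 with its most abundant transcript, and that of ANAPC5 ran from -0.0030 (without PZT-2 replicate 2) to 0.089 with a library left out. The cause was not tested. Of all called genes, 51.8% were higher in PZT-2, and 62.1% and 62.2% with limma on TPM. The counts of substrates called lower ran from 4 to 13 over the alternatives other than the 2-fold minimum, and those of SCF genes called lower from 0 to 3. With 2 libraries a line, small changes can be missed. With edgeR's quasi-likelihood test, ANAPC1 (-0.22, adjusted p = 0.0559) was near the threshold and ANAPC11 (-0.11, adjusted p = 0.280) was not.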
